A study of Mus musculus with 9 samples.

Results

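The Wnt genes examined here were 41 genes of the mouse Wnt pathway: 19 ligands, 11 receptors (10 Frizzled genes and Ror2), 8 secreted inhibitors and 3 genes that act inside the cell (Axin2, Lef1 and Tcf7). They were listed by gene name, with earlier results of these data known, and all 41 were found among the 22380 protein-coding genes of the mm9 annotation. For each gene, the ATAC-seq peaks whose midpoint lay in the gene body or within 20 kb on either side were counted in each library. A peak within 1 kb of a transcription start site (TSS) of the gene itself was an own-promoter peak, and one more than 1 kb from every annotated TSS was a distal peak. The windows of Wnt1 and Wnt10b, Wnt3 and Wnt9b, Wnt3a and Wnt9a, and Wnt6 and Wnt10a overlap, so a peak between such neighbours counts for both. Peaks near the TSS of another gene are in the count of all peaks alone.

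The study asked how loss of Tbx1, a T-box transcription factor, alters chromatin in the progenitors of the pharyngeal apparatus and heart. All libraries came from E9.5 Swiss Webster mouse embryos, pooled for each library, and from live GFP-positive cells sorted after Cre recombination of a Rosa26 reporter. Mesp1-Cre Ctrl (Mesp1Cre;Rosa26-GFPflox/+) labels the descendants of early mesoderm. Tbx1-Cre Ctrl (Tbx1Cre;Rosa26-GFPflox/+) labels cells that have expressed Tbx1, which also lie in pharyngeal endoderm and ectoderm. Tbx1-Cre cKO (Tbx1Cre/flox;Rosa26-GFPflox/+) carries a floxed Tbx1 allele over the Cre allele. The Cre allele replaces a working copy of Tbx1, so Tbx1-Cre Ctrl embryos are heterozygous for Tbx1, whereas Mesp1-Cre Ctrl embryos are not. Each group has 3 libraries. The tissue label of the Mesp1-Cre embryos names the pharyngeal apparatus and heart, that of the Tbx1-Cre embryos adds the back, and the study's methods describe a pharyngeal apparatus without heart, so lineage and dissection cannot be told apart between Mesp1-Cre and Tbx1-Cre groups.

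Wnt ligands are secreted lipid-modified proteins that bind Frizzled receptors. In the canonical branch, Frizzled and an Lrp coreceptor stabilise beta-catenin, which enters the nucleus and activates genes with Lef1 or Tcf7. In the non-canonical branches, ligands such as Wnt5a and Wnt11 act through receptors such as Ror2 on cell polarity and movement, and both ligands are known for roles in the outflow tract of the heart. Secreted frizzled-related proteins (Sfrp genes and Frzb) bind ligands outside the cell. Dickkopf proteins such as Dkk1 and Dkk2 block the Lrp coreceptors or modulate them.

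The lists held 42650, 25485 and 30535 peaks in Mesp1-Cre Ctrl, 49490, 43298 and 47013 in Tbx1-Cre Ctrl, and 29251, 24042 and 19772 in Tbx1-Cre cKO (replicates 1, 2 and 3 here and in every later trio of values). The cKO lists were thus shorter than all control lists of the same Cre line, and replicate 1 of Mesp1-Cre Ctrl was longer than the other lists of its group. The study's own summary gives 25485 and 30535 peaks for Mesp1-Cre libraries but not 42650. Its remaining Mesp1-Cre library has fewer peaks than both. The Tbx1-Cre list lengths all match that summary. The origin of the Mesp1-Cre Ctrl replicate 1 list is thus uncertain, and every Mesp1-Cre result below includes it unless stated. Read depth is unknown, and a missing peak can mean fewer reads as well as less accessible chromatin. Fewer cells of a type and less accessibility per cell cannot be told apart either. The Tbx1 window held 5, 4 and 4 peaks in Tbx1-Cre Ctrl, 1, 0 and 0 in cKO and 2, 2 and 2 in Mesp1-Cre Ctrl, which does not check the deletion itself. Own-promoter peaks were present at 5 to 7 of 8 mesoderm markers in Mesp1-Cre Ctrl, 6 to 7 in Tbx1-Cre Ctrl and 3 to 6 in cKO. The corresponding counts for 7 markers of epithelium and endoderm were 3 to 4, 2 to 5 and 1 to 2. They were 1 to 2, 2 and 1 for 4 endothelial markers, and 0 to 2, 0 to 2 and 0 to 1 for 5 ectodermal and otic markers. No library had a promoter peak at Gata1, Klf1 or Spi1, the blood markers, and at most 1 of 3 neural crest markers had one. The part of cell composition in the results below was not tested.

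Sequences of regions named in the comparisons are given first, from the mm9 reference. The first set holds the widest distal regions with a peak in all 3 Tbx1-Cre Ctrl and in 0 cKO libraries, apart from one on a chromosome whose sequence is not shown here. Each is the central 300 bases of the merged peak.
Sfrp1 downstream region, chr8:24578861-24579160, plus strand: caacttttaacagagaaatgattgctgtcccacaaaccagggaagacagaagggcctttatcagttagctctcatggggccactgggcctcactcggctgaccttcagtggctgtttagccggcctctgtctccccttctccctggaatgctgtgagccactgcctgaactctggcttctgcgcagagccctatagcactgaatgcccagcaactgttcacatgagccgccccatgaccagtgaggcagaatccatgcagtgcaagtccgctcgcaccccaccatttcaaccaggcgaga
Ror2 intron region, chr13:53273927-53274226, plus strand: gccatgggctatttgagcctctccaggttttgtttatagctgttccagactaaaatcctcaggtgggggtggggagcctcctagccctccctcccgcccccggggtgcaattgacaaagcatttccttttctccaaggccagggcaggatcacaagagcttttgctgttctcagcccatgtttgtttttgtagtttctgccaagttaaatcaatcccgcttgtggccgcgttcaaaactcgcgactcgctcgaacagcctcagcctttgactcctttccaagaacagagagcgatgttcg
Wnt5b intron region, chr6:119470788-119471087, plus strand: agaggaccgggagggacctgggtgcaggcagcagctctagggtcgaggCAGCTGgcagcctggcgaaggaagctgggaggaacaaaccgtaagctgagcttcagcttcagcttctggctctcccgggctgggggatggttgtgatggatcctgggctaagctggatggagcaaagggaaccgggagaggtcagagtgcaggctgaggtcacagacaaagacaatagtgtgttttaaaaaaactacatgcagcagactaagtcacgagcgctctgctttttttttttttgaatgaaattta
The next sequence is the single distal region with a peak in all 3 Mesp1-Cre Ctrl and in 0 Tbx1-Cre Ctrl libraries.
Lef1 intron region, chr3:130878792-130879091, plus strand: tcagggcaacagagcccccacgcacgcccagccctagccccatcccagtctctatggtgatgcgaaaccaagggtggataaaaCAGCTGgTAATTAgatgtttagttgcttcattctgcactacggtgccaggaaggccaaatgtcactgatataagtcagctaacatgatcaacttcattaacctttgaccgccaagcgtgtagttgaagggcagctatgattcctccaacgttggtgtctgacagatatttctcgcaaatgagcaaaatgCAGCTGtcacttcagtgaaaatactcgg
For contrast, the following region had a peak in all 9 libraries.
Wnt11 upstream region, chr7:105964250-105964549, plus strand: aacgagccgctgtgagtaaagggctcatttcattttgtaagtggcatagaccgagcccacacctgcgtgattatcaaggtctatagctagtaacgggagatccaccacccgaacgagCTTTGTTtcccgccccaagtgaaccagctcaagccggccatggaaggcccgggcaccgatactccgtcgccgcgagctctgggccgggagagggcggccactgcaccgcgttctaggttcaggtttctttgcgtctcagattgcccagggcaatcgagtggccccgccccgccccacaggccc
The last is the 250 bases before an internal TSS of Wnt11, of 4 annotated for the gene. This TSS was chosen as the nearest to the Tbx1-Cre Ctrl peaks. Wnt11 had own-promoter peaks in all 3 Tbx1-Cre Ctrl libraries and in 0 cKO libraries. The peaks over this TSS in replicates 1 and 2 of Tbx1-Cre Ctrl cover part of the 250 bases, and that of replicate 3 lies upstream of them.
Wnt11 promoter, chr7:105987158-105987407, plus strand: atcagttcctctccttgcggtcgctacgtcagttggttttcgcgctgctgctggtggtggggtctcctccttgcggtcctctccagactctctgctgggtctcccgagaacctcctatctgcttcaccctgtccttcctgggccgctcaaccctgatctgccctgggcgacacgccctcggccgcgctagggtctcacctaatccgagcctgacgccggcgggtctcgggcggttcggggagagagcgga
Capitals mark exact matches, on either strand, to the letters of 5 motif families. The T-box letters were GGTGTGA. The TCF/LEF letters were CTTTGAA, with CTTTGAT as a first variant, then the variant CTTTGTA and last the variant CTTTGTT. The forkhead letters were GTAAACA, the homeodomain letters were TAATTA and the E-box letters were CAGCTG. These letters were searched in the central 300 bases of 54273 distal regions of the genome, of which 4.23% held the T-box, 23.7% a TCF/LEF, 5.46% the forkhead, 6.67% the homeodomain and 25.4% the E-box letters. The Sfrp1 and Ror2 regions and the Wnt11 promoter held none of them. The Wnt5b region held 1 E-box, the Lef1 region 2 E-boxes and 1 homeodomain match, and the Wnt11 upstream region 1 TCF/LEF match. Of 69978 promoters of 250 bases, 3.12% held the T-box and 13.4% a TCF/LEF match. A match here describes letters and is not evidence of binding.

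The lists held fewer peaks at Wnt genes in cKO than in Tbx1-Cre Ctrl, with a lower ratio for distal than for promoter peaks. Summed over the 41 windows, distal peaks numbered 140, 80 and 96 in Tbx1-Cre Ctrl and 40, 35 and 23 in cKO, with means of 105 ± 31.1 and 32.7 ± 8.74 (SD, n = 3 each). The cKO to Ctrl ratio of the means was 0.310. The same ratio was 0.384 over the windows of all protein-coding genes and 0.356 for all distal peaks of the lists, so the ratio at the Wnt windows was near, and somewhat below, that of the genome. Without Tbx1-Cre Ctrl replicate 1 the ratio at the Wnt windows was 0.371. Own-promoter peaks numbered 52, 47 and 41 in Tbx1-Cre Ctrl and 36, 33 and 24 in cKO, a ratio of 0.664 against 0.855 over all genes. The groups did not overlap for either sum. When only the 19772 widest peaks of each list were kept, the distal ratio at the Wnt genes was 0.880 and the own-promoter ratio turned to 1.27. No test is given for sums over a chosen list.

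**Figure D1:**
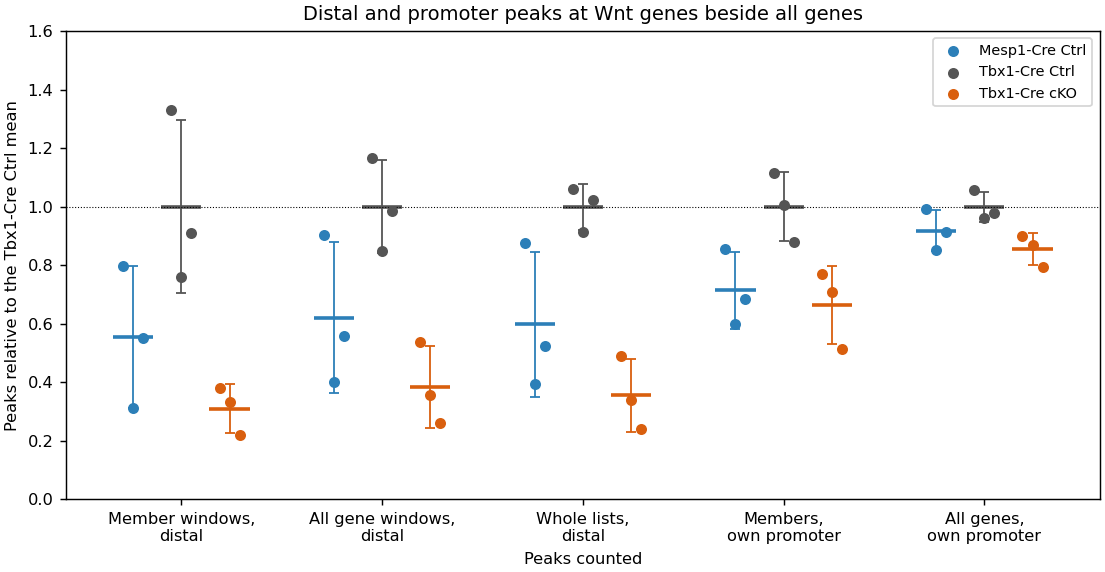
Peaks of each kind in every library divided by the mean of the 3 Tbx1-Cre Ctrl libraries (points, libraries; horizontal bars, group means; whiskers, SD; n = 3 per group; axis from 0). The cKO libraries lie below all Tbx1-Cre Ctrl libraries in each column, with mean ratios of 0.310 for distal peaks at the Wnt genes and 0.384 for distal peaks at all genes; with equal numbers of widest peaks (not drawn) the Wnt distal ratio is 0.880 and the own-promoter ratio 1.27.

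Promoter peaks differed by role. Every one of the 11 receptor genes had an own-promoter peak in all 3 Tbx1-Cre Ctrl and all 3 cKO libraries. Of the 19 ligands, 11, 11 and 9 had one in Tbx1-Cre Ctrl and 6, 6 and 1 in cKO. The difference in promoters with a peak thus lay mostly at the ligands, and not at the receptors, as a description with no test between roles. The ligand peaks were mostly narrower. In Tbx1-Cre Ctrl no ligand promoter peak but those of Wnt16 was wider than 709 bp. The widest promoter peak of every receptor but Fzd6, Fzd9 and Fzd10 was at least 666 bp in each of these libraries. With equal numbers of widest peaks the promoter ratio over the Wnt genes was reversed, as given above. The part of peak width was not tested. The 8 secreted inhibitors all had a promoter peak in each Tbx1-Cre Ctrl library, and 7, 6 and 7 had one in cKO. Over all protein-coding genes, 62.0%, 61.1% and 61.4% had an own-promoter peak in Tbx1-Cre Ctrl and 57.5%, 55.7% and 52.3% in cKO. The lowest ligand count came from cKO replicate 3, which is also the shortest list. Its ligand with a promoter peak was Wnt16, the only ligand with such a peak in all 9 libraries. In Mesp1-Cre Ctrl the ligand counts were 10, 4 and 5 and the receptor counts 11, 10 and 10, with Fzd9 the receptor that lacked one. No own-promoter peak was found in any library at 6 ligands, namely Wnt3a, Wnt6, Wnt7b, Wnt8a, Wnt8b and Wnt10a, although each had distal peaks. By comparison, 34.0% of all protein-coding genes had no own-promoter peak in any library.

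**Figure D2:**
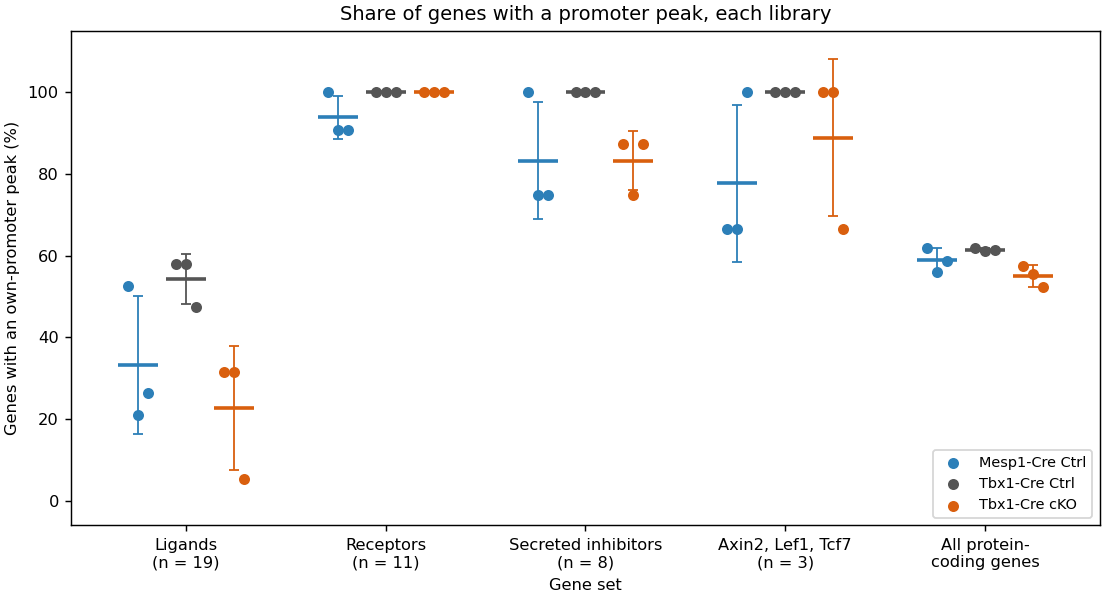
Percentage of genes of each role, and of all protein-coding genes, with an own-promoter peak in each library (points, libraries; horizontal bars, means; whiskers, SD; n = 3 per group). All 11 receptors have a promoter peak in the 6 Tbx1-Cre libraries, whereas 11, 11 and 9 of the 19 ligands have one in Ctrl and 6, 6 and 1 in cKO. The ligand peaks are mostly narrower than the receptor peaks (not drawn).

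Gene by gene, 17 of the 41 windows held fewer peaks in every cKO library than in every Tbx1-Cre Ctrl library, and 0 held more. The same was true of 16.0% of all protein-coding genes, with 0.116% higher, and of 19.8% of the 16724 genes with a mean of at least 1 peak over the 9 libraries, a group that includes all 41. For distal peaks the count was 14 of 41 lower and 0 higher, against 13.1% and 0.0447% of all genes, or 11 of the 24 members with a mean of at least 1 distal peak against 30.6% of such genes. For own-promoter peaks it was 2 of 41 lower, Wnt11 and Sfrp5, and 0 higher, against 2.35% and 0.165%. Every one of the 41 windows held a peak in at least 1 library. Beyond the floor of a mean of 1 peak, the background genes were not matched to the members for number of peaks. Whether the groups separate can depend on that number. In the exact two-sided permutation test of a single gene, 3 against 3 libraries have 20 relabellings and cannot go below p = 0.1. All 17 genes had this p, as did 3597 of all genes, and the smallest adjusted p was 0.622, so no single gene passed a threshold of 0.05. Both the length of the lists and their content enter these counts. When only the 19772 widest peaks of each list were kept, 0 of the 41 genes were lower and 0 higher in cKO by the same exact comparison, against 0.862% lower and 2.43% higher over all genes, and 0 were lower in distal peaks, against 0.943%. When counts were divided by list length (added after seeing the data), 8 were lower and 6 higher, against 4.34% and 27.1% of all genes, and 10 were lower in distal peaks, against 8.17%. The 8 were Wnt2b, Wnt5b, Wnt6, Wnt7a, Wnt10a, Sfrp5, Dkk2 and Axin2, and the 6 were Wnt3a, Fzd3, Fzd8, Fzd9, Sfrp4 and Frzb.

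**Figure D3:**
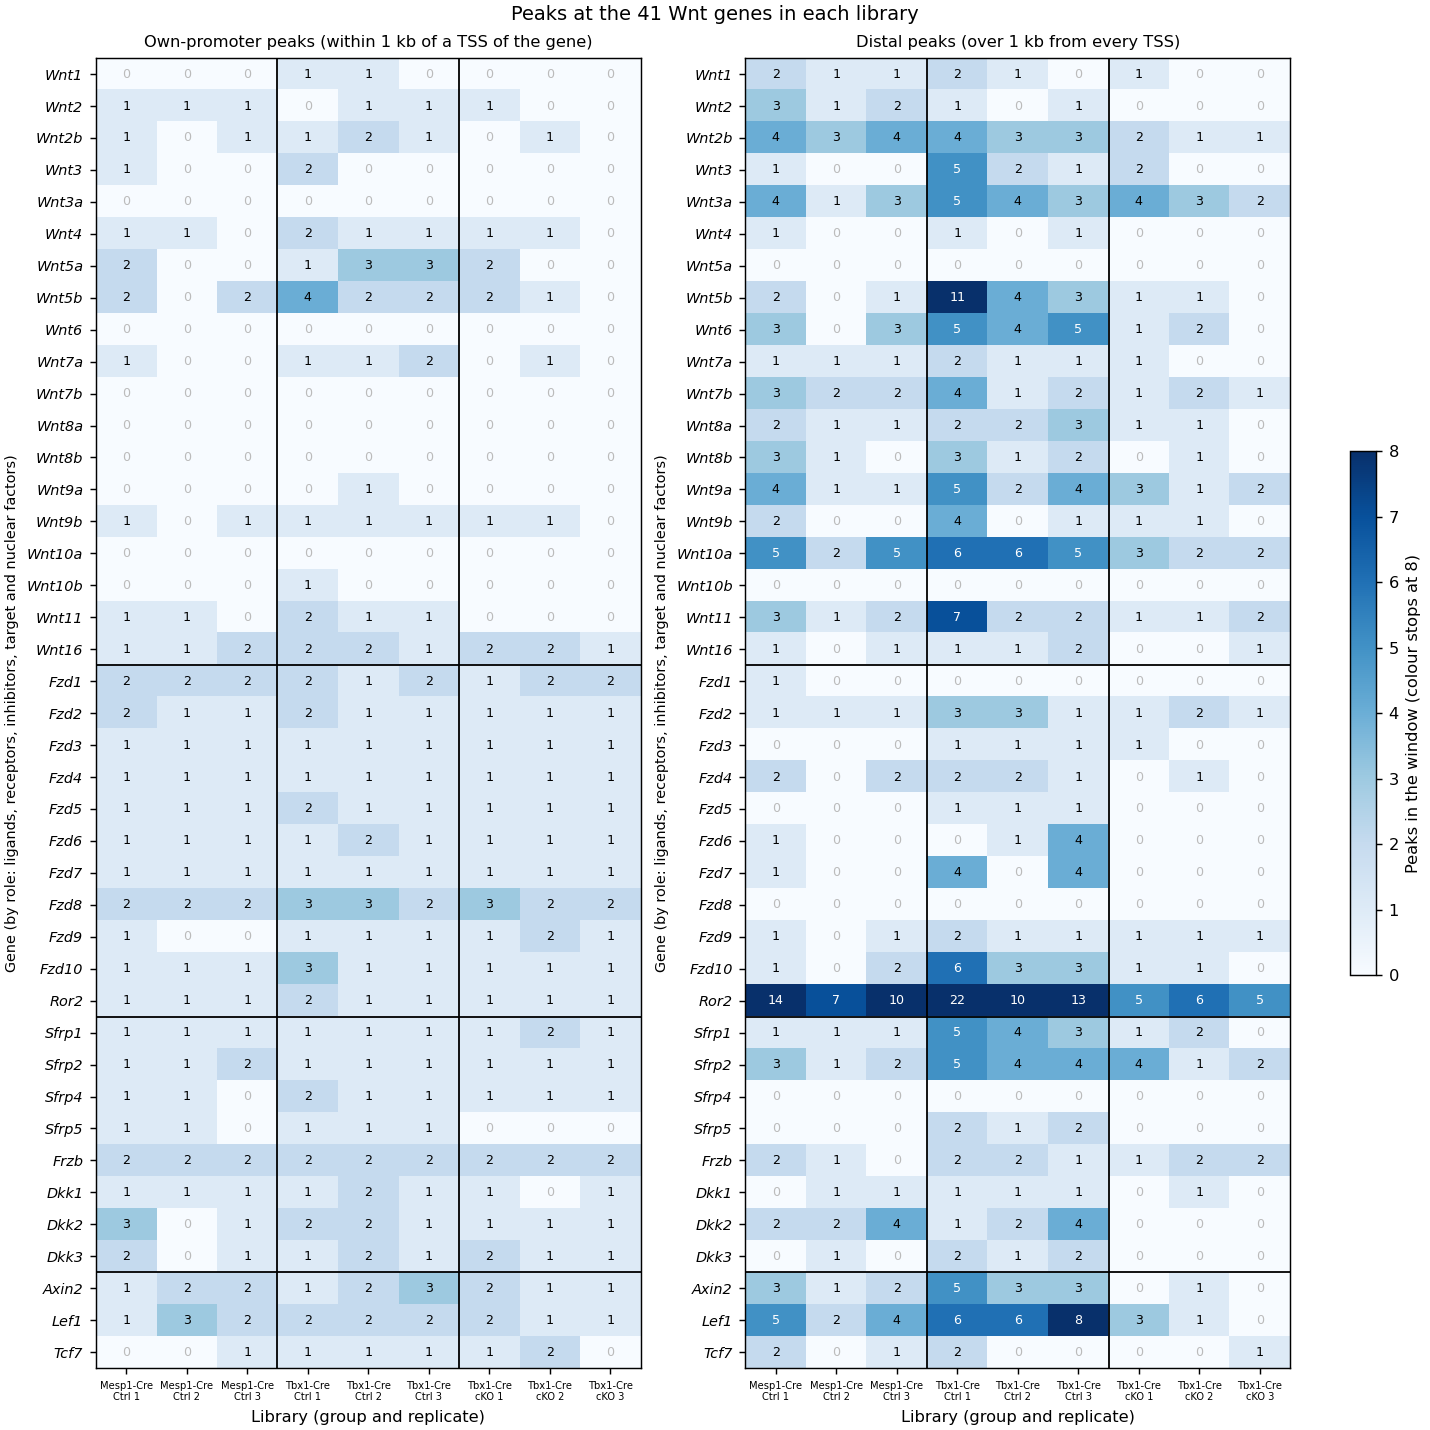
Number of own-promoter peaks (left) and distal peaks (right) in the window of each of the 41 genes (rows, by role) in each of the 9 libraries (columns; colour stops at 8, the numbers are exact). The receptors hold promoter peaks in nearly every library, and the distal counts of Sfrp1, Lef1, Axin2, Wnt5b and Ror2 are lower in the 3 cKO than in the 3 Tbx1-Cre Ctrl libraries.

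Among the ligands, the difference was largest at Wnt5b, which is also the longest ligand gene. Counts were not scaled to the length of the window. Wnt5b, a non-canonical ligand, had 16, 7 and 7 peaks in Tbx1-Cre Ctrl and 4, 3 and 1 in cKO (difference in means -7.33, exact permutation p = 0.1). Tbx1-Cre Ctrl replicate 1 is far above the other control libraries here, and without it the groups are separate with a difference of -4.33. Wnt6 had 5, 4 and 5 peaks in Tbx1-Cre Ctrl and 1, 2 and 0 in cKO, all of them distal, and its neighbour Wnt10a had 6, 6 and 5 against 3, 2 and 2. Both genes lie in adjoining windows and share part of these peaks, so they are not independent. Wnt2b, a canonical ligand with a role in endoderm patterning, had 5, 5 and 4 peaks against 2, 2 and 1. Wnt7a had 3, 2 and 3 against 1, 1 and 0, Wnt8a 2, 2 and 3 against 1, 1 and 0, and Wnt16 3, 3 and 3 against 2, 2 and 2. In each of these 3 genes the nearest control and cKO libraries were 1 peak apart. With equal numbers of widest peaks the difference turned in 5 of the genes of this paragraph, to 1.33 at Wnt5b, 0.667 at Wnt6 and Wnt2b, and 0.333 at Wnt10a and Wnt16.

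Wnt11, a ligand of the outflow tract, had 9, 3 and 3 peaks in Tbx1-Cre Ctrl and 1, 1 and 2 in cKO (difference in means -3.67, exact permutation p = 0.1). Without Tbx1-Cre Ctrl replicate 1 the difference was -1.67, and with equal numbers of widest peaks it was 0. Own-promoter peaks were found in all 3 Tbx1-Cre Ctrl libraries, with 2, 1 and 1, and in no cKO library. Mesp1-Cre Ctrl had 5, 2 and 2 peaks at Wnt11, with own-promoter peaks numbering 1, 1 and 0. The annotated start of Wnt11 is at position 105983622 of chromosome 7. In replicates 1 and 2 of Tbx1-Cre Ctrl a peak lay over an internal TSS, at position 105987408. Its midpoint was 74 and 97 bp downstream of this TSS and its width 516 and 432 bp. In replicate 3 the peak lay 844 bp upstream and was 438 bp wide, and replicate 1 had a second peak of 331 bp in the same merged region (chr7:105986345-105986950). Each of these 2 positions thus had a peak in 2 of the 3 Tbx1-Cre Ctrl libraries. The peaks that remained at Wnt11 in cKO were distal ones, at the upstream region shown above.

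Wnt5a, a non-canonical ligand of the second heart field, had no distal peak in any of the 9 libraries. Its own-promoter peaks numbered 1, 3 and 3 in Tbx1-Cre Ctrl, 2, 0 and 0 in cKO and 2, 0 and 0 in Mesp1-Cre Ctrl. The groups overlapped, with a difference in means of -1.67 for cKO (exact permutation p = 0.2). Wnt2, a ligand of the posterior second heart field, had 1, 1 and 2 peaks in Tbx1-Cre Ctrl, 1, 0 and 0 in cKO and 4, 2 and 3 in Mesp1-Cre Ctrl. It was one of 2 members, with Fzd1, whose mean was higher in Mesp1-Cre than in Tbx1-Cre Ctrl (difference 1.67, exact permutation p = 0.2), and the groups met at 2 peaks. The other 8 ligands (Wnt1, Wnt3, Wnt3a, Wnt4, Wnt7b, Wnt8b, Wnt9a and Wnt9b) and Wnt10b had lower means in cKO, with differences from -1 to -2.67 and overlapping groups. Wnt10b had no distal peak in any library.

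Among the receptors, separated counts lay with the distal peaks, while the promoters kept theirs. Ror2, the tyrosine kinase receptor of Wnt5a, held the most peaks of all members, with 24, 11 and 14 in Tbx1-Cre Ctrl, 6, 7 and 6 in cKO and 15, 8 and 11 in Mesp1-Cre Ctrl. All but 1 or 2 of these in each library were distal. The cKO values lie below all others, and the difference from Tbx1-Cre Ctrl was -10.0, or -6.17 without its replicate 1. Fzd10, a Frizzled receptor, had 9, 4 and 5 peaks in Tbx1-Cre Ctrl and 3, 2 and 1 in cKO (difference -4, exact permutation p = 0.1), and the difference was -2.5 without Tbx1-Cre Ctrl replicate 1. Fzd5 had 3, 2 and 2 against 1, 1 and 1, and its promoter peak was kept in all 9 libraries. The remaining 8 receptors overlapped between the groups. Fzd1 and Fzd9 had equal means in Tbx1-Cre Ctrl and cKO, Fzd8 had no distal peak in any library, and Fzd7 had 4, 0 and 4 distal peaks in Tbx1-Cre Ctrl and 0, 0 and 0 in cKO, so that 1 control library was as low as the cKO libraries.

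The secreted inhibitors divided. Sfrp5, an Sfrp of foregut endoderm, had 3, 2 and 3 peaks in Tbx1-Cre Ctrl, 1, 1 and 0 in Mesp1-Cre Ctrl and none in any cKO library. It was the only member whose window held no peak in all 3 cKO libraries. Its promoter peak in Tbx1-Cre Ctrl was 230, 261 and 484 bp wide, with a midpoint 321 to 379 bp inside the gene, and its distal peaks lay on both sides of the gene. Dkk2, a Dickkopf protein, had 3, 4 and 5 peaks in Tbx1-Cre Ctrl and 5, 2 and 5 in Mesp1-Cre Ctrl. Each cKO library held 1. This kept peak lay upstream of the TSS, at -0.974 to -0.547 kb, -1.023 to -0.726 kb and -0.985 to -0.772 kb. A separate peak just inside the gene (0.192 to 0.745 kb in replicate 1) was found in every Tbx1-Cre Ctrl library and in no cKO library. Dkk3 had 3, 3 and 3 against 2, 1 and 1, and Dkk1, the canonical inhibitor, 2, 3 and 2 against 1, 1 and 1. Sfrp1 overlapped in all peaks (6, 5 and 4 against 2, 4 and 1) but not in distal peaks, with 5, 4 and 3 in Tbx1-Cre Ctrl and 1, 2 and 0 in cKO. Sfrp4 and Frzb had equal means in both groups, and Sfrp2 had 7, 6 and 6 against 6, 3 and 5. Hence the 4 inhibitors with separated counts of all peaks were Sfrp5, Dkk1, Dkk2 and Dkk3, while Frzb and Sfrp4 did not differ in their mean.

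**Figure D4:**
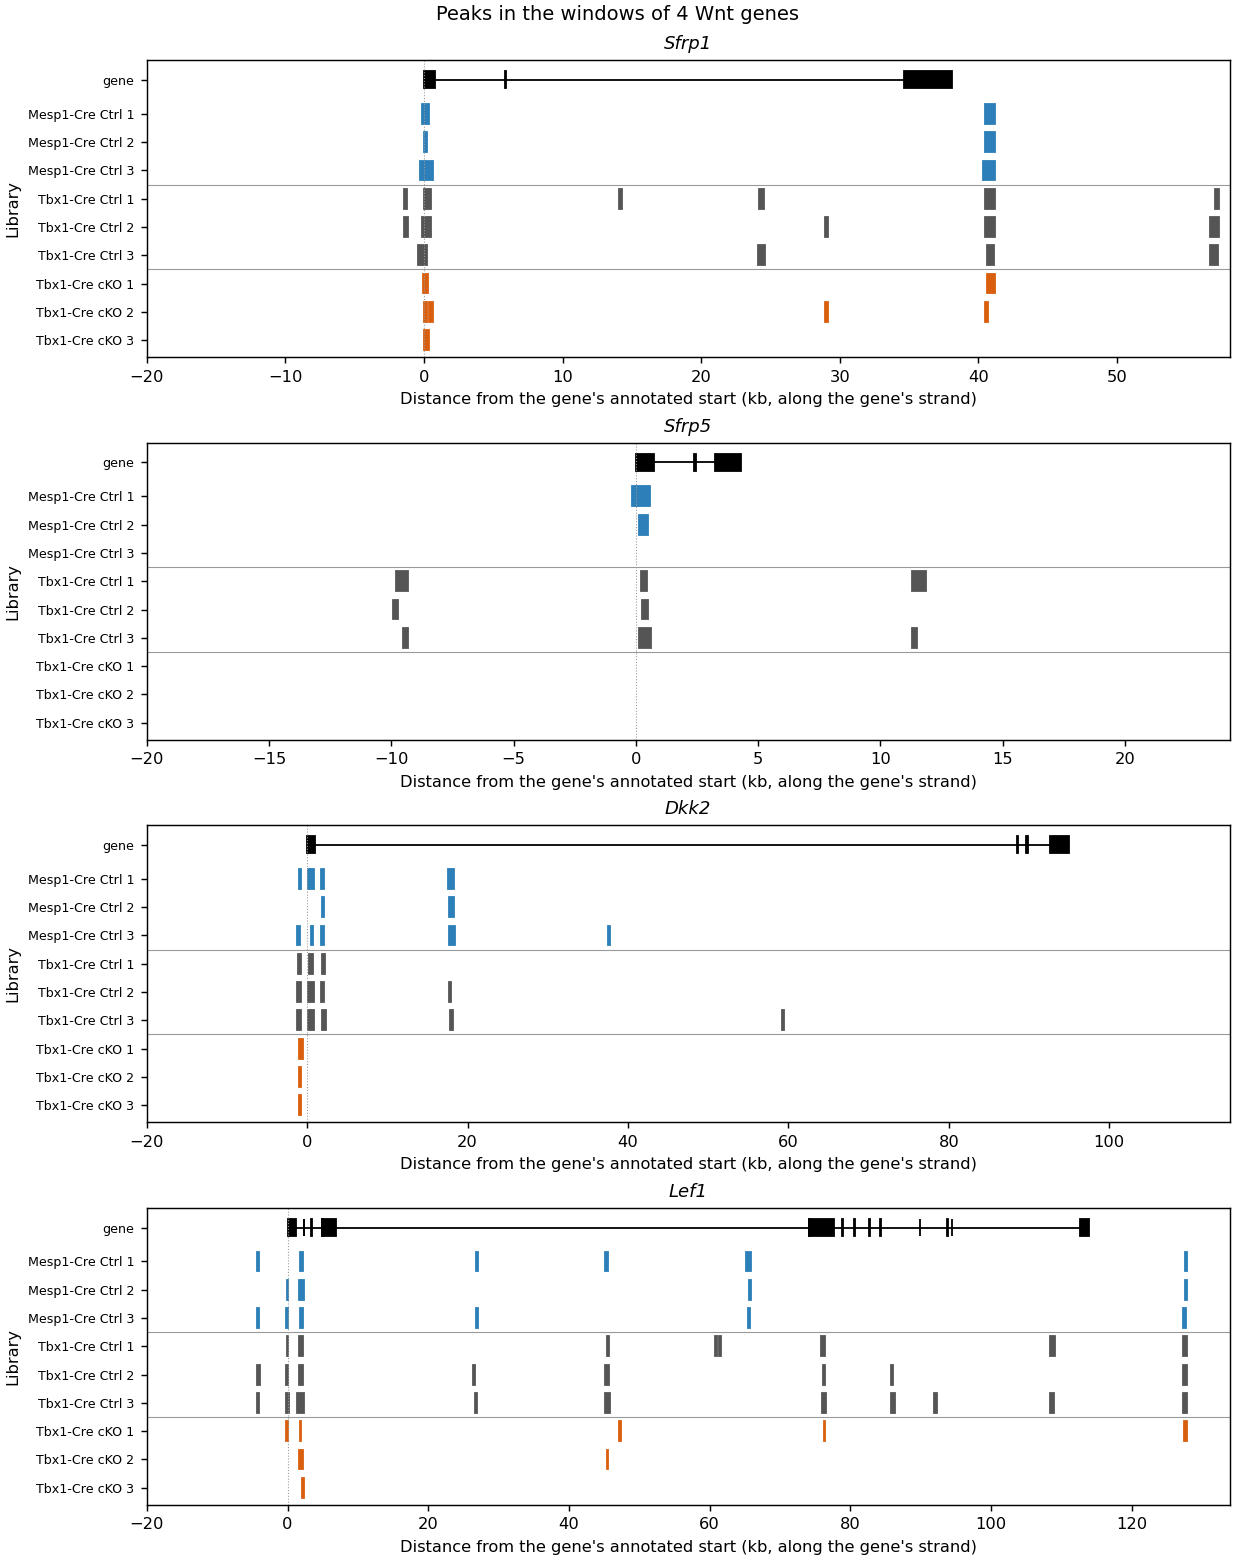
Peaks (boxes, to scale) in the windows of Sfrp1, Sfrp5, Dkk2 and Lef1 in each of the 9 libraries, by distance in kb from the annotated start of the gene along its strand, with exons as black boxes. Sfrp5 has 3, 2 and 3 peaks in Tbx1-Cre Ctrl and none in cKO. Dkk2 keeps 1 peak upstream of its start in each cKO library, and no cKO library has the peak just inside the gene.

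Inside the cell, Lef1, the nuclear factor that binds DNA with beta-catenin, had 8, 8 and 10 peaks in Tbx1-Cre Ctrl, 6, 5 and 6 in Mesp1-Cre Ctrl and 5, 2 and 1 in cKO (difference for cKO -6, exact permutation p = 0.1). Its distal peaks numbered 6, 6 and 8 in Tbx1-Cre Ctrl and 3, 1 and 0 in cKO. Over its 3 annotated TSS, every library had at least 1 own-promoter peak. At the annotated start (chr3:130813146-130813537), a peak was found in 3 Tbx1-Cre Ctrl, 2 Mesp1-Cre Ctrl and 1 cKO library. The promoter region with a peak in all 9 libraries lay near an internal TSS (chr3:130814809-130815678). Axin2, a feedback inhibitor and a widely used target of canonical Wnt signalling, had 6, 5 and 6 peaks in Tbx1-Cre Ctrl, 4, 3 and 4 in Mesp1-Cre Ctrl and 2, 2 and 1 in cKO. For both genes the 3 groups were fully separate, in the order Tbx1-Cre Ctrl, Mesp1-Cre Ctrl and cKO, except that Lef1 had 5 peaks in 1 library of Mesp1-Cre Ctrl and in 1 of cKO. Tcf7 had 4, 1 and 1 peaks against 1, 2 and 1, and the groups overlapped.

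The width of the promoter peaks that were kept was compared as well. Of the 16 members with an own-promoter peak in all 9 libraries, 4 had a narrower widest peak in every cKO than in every Tbx1-Cre Ctrl library, against 39.0% of the 10874 genes of this kind. They were Fzd8, Sfrp1, Sfrp2 and Lef1. At Sfrp1 the width was 515, 639 and 674 bp in Tbx1-Cre Ctrl and 322, 286 and 362 bp in cKO. In cKO replicate 2 this promoter had 2 separate peaks (-0.011 to 0.188 kb and 0.381 to 0.666 kb), of which the wider was used. The widest peak need not be at the same place in each library. At Lef1 it lay at the annotated start in cKO replicate 1 and near an internal TSS in Tbx1-Cre Ctrl. The median cKO to Ctrl width ratio was 0.792 over the 16 members and 0.798 over all such genes, so the kept promoters of Wnt genes did not stand out. None of the 16 was wider in cKO, against 0.120% of all such genes.

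Single distal elements were then compared across libraries. The merged peaks of the 9 lists gave 165 distal regions in the Wnt windows, of which 79 were in introns, 72 between genes and the others in exons. Of these, 14 had a peak in 3 of 3 Tbx1-Cre Ctrl and 0 of 3 cKO libraries (8.48%), against 7.95% of all 54275 distal regions, and 0 had the reverse pattern, against 0.0129%. Of the 50 regions with a peak in all 3 Tbx1-Cre Ctrl libraries, 14, 13, 13 and 10 had a peak in 0, 1, 2 and 3 cKO libraries. In the genome the shares with 0, 1, 2 and 3 were 28.0%, 24.7%, 20.2% and 27.1%, and the share with 0 at the Wnt genes was also 28.0%.

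**Figure D5:**
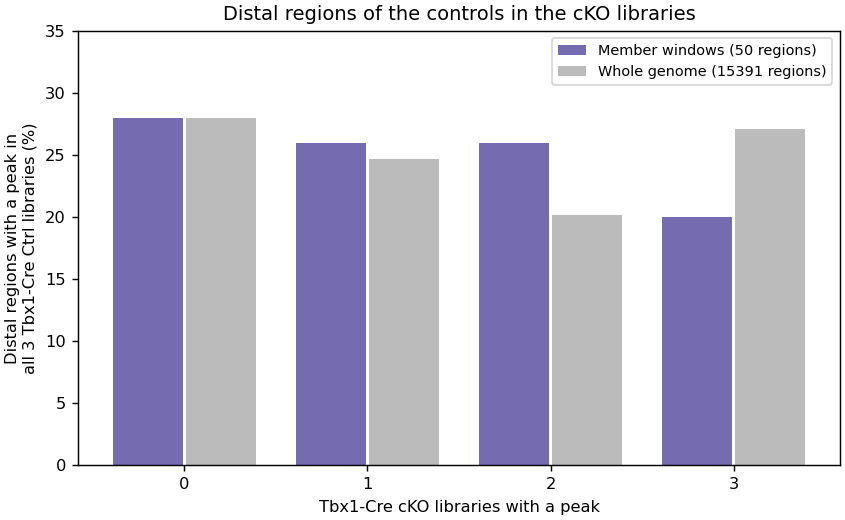
Percentage of the distal regions with a peak in all 3 Tbx1-Cre Ctrl libraries that had a peak in 0, 1, 2 or 3 cKO libraries, for 50 regions at the Wnt genes and 15391 regions of the whole genome (bars from 0). The shares with 0 cKO libraries are both 28.0%.

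The widest of the 14 regions lay at Sfrp1, 57.0 kb downstream of its TSS between genes (chr8:24578675-24579345), with peaks of 248, 671 and 586 bp in Tbx1-Cre Ctrl and no peak in Mesp1-Cre Ctrl. The nearest cKO peak was 12789 bp away. The next was in the coding sequence of Wnt8a (chr18:34706691-34707412), 5.1 kb from its TSS, and had a peak in all 3 Mesp1-Cre Ctrl libraries. Ror2 held 3 of the 14, all in introns. They lay 97.0 kb (chr13:53273784-53274368), 81.7 kb (chr13:53289030-53289657) and 73.8 kb (chr13:53297112-53297422) into the gene and had peaks in 2, 1 and 3 Mesp1-Cre Ctrl libraries. The Wnt5b region lay in an intron 23.4 kb from the TSS (chr6:119470666-119471208), had no Mesp1-Cre Ctrl peak, and was only 753 bp from a cKO peak. A Dkk2 intron region 2.0 kb from the TSS (chr3:131749956-131750592) and a region 20.8 kb downstream of the Wnt2b TSS (chr3:104743452-104744183) had a peak in all 3 Mesp1-Cre Ctrl libraries. A region 11.5 kb upstream of Dkk3 (chr7:119313801-119314294) had none. The other 5 lay at Wnt16, Fzd5, Sfrp5, between Wnt6 and Wnt10a, and upstream of Wnt6.

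Accessibility of these 14 regions in the mesodermal lineage was not used to choose them. A peak was found in all 3 Mesp1-Cre Ctrl libraries at 4 of them (28.6%), at Wnt8a, Dkk2, Wnt2b and Ror2, against 11.9% of the 4316 such regions in the genome. No Mesp1-Cre Ctrl library had a peak at 7 of the 14, against 48.6%. With 14 regions these shares are a description. In the central 300 bases of the 14 regions, the T-box letters were found in 0, a TCF/LEF match in 2, the forkhead letters in 1, the homeodomain letters in 0 and the E-box letters in 2. Over the 4316 such regions in the genome the shares were 3.64%, 24.8%, 6.42%, 6.39% and 27.3%.

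Regions with a peak in all 9 libraries numbered 8 (4.85%, against 5.82% in the genome). The widest lay 19.2 kb upstream of the annotated start of Wnt11 (chr7:105963529-105965268). Its widest peaks were 935, 1486 and 1562 bp in Tbx1-Cre Ctrl, 1414, 1503 and 531 bp in cKO and 1583, 1166 and 1499 bp in Mesp1-Cre Ctrl. Thus the Wnt11 window kept a wide upstream element in cKO, where its promoter peaks were missing. Others among the widest lay 25.6 kb downstream of the Wnt10a TSS (chr1:74863172-74864165) and 8.8 kb upstream of Fzd2 (chr11:102456466-102457519).

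Mesp1-Cre Ctrl was compared with Tbx1-Cre Ctrl next, to set the Mesp1 lineage against the Tbx1 lineage. In 11 of 41 windows every Mesp1-Cre Ctrl library held fewer peaks than every Tbx1-Cre Ctrl library, against 7.07% of all protein-coding genes, and in 0 more, against 0.366%. They were Wnt5b, Wnt6, Fzd3, Fzd5, Fzd10, Sfrp1, Sfrp2, Sfrp5, Dkk3, Axin2 and Lef1. Distal peaks were lower at 9 of 41, against 6.43%, and higher at 0, against 0.295%. Own-promoter peaks were lower at 0 and higher at 0, against 1.03% and 0.156%. These shares are over all protein-coding genes, of which only 16724 had a mean of at least 1 peak, as all 41 members did. The shares over genes above such a floor were not computed for this comparison, so the background is not matched. The single-gene exact permutation p cannot go below 0.1 here either. Sfrp1 had 2, 2 and 2 peaks in Mesp1-Cre Ctrl against 6, 5 and 4, and Sfrp2 5, 3 and 5 against 7, 6 and 6. Fzd10 had 2, 1 and 3 against 9, 4 and 5, and Wnt5b 5, 1 and 4 against 16, 7 and 7. Without Tbx1-Cre Ctrl replicate 1 their differences of -4 and -6.67 became -2.5 and -3.67. Fzd3 had 2, 2 and 2 against 3, 3 and 3, and Fzd5 1, 1 and 1 against 3, 2 and 2, each a difference of 1 or 2 peaks. Dkk3 had 2, 1 and 1 against 3, 3 and 3, and Wnt6 3, 0 and 3 against 5, 4 and 5. By contrast Dkk2 had equal means of 4 in both control groups, and Wnt2b had 5, 3 and 5 against 5, 5 and 4. With equal numbers of widest peaks the difference turned to 0.667 at Wnt5b and 0.333 at Wnt6 and Sfrp5, and without Mesp1-Cre Ctrl replicate 2 it went from -2.67 to -1.67 at Wnt6 and from -2 to -1.33 at Sfrp2.

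Without Mesp1-Cre Ctrl replicate 1, whose list is the longest of its group, 18 of 41 windows were lower, against 17.5% of all genes. Divided by list length, 5 members were lower and 3 higher, against 3.97% and 21.8% of all genes, and with equal numbers of widest peaks 1 was lower, against 1.22%. The only distal region with a peak in all 3 Mesp1-Cre Ctrl and in 0 Tbx1-Cre Ctrl libraries lay in an intron of Lef1, 63.2 kb from its TSS (chr3:130878553-130879329), with peaks of 777, 285 and 371 bp and no cKO peak (1 of 165, against 0.942% of all distal regions). The opposite pattern, a peak in all 3 Tbx1-Cre Ctrl and in 0 Mesp1-Cre Ctrl libraries, was found at 12 of 165, against 6.99%. Both comparisons share the Tbx1-Cre Ctrl libraries.

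Other genes of the pathway were counted in the same way. Of 60 coreceptors, intracellular and polarity genes and further modulators, 18 had fewer peaks in every cKO than in every Tbx1-Cre Ctrl library and 0 had more, against 16.0% and 0.116% of all genes. Distal peaks were lower at 15, against 13.1%, and own-promoter peaks at 1, Dact2, against 2.35%. Over genes with a mean of at least 1 such peak, the shares were 19.8% for all peaks and 30.6% for distal peaks. That floor was not applied to the 60 genes. Among genes whose groups did not overlap, the largest difference was at Ror1, the paralogue of Ror2 and the longest of the 60 genes. It had 15, 11 and 15 peaks in Tbx1-Cre Ctrl and 7, 7 and 6 in cKO. Lrp5, a coreceptor, had 11, 6 and 7 against 3, 4 and 3, and Tcf7l2, a nuclear factor related to Lef1, had 12, 6 and 8 against 4, 5 and 5. Prickle1 and Prickle2, genes of planar cell polarity, had 8, 6 and 7 against 5, 3 and 4, and 6, 5 and 6 against 3, 4 and 1. In Mesp1-Cre Ctrl, 7 of the 60 were lower than Tbx1-Cre Ctrl in all peaks, against 7.07% of all genes, and 0 higher, against 0.366%.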

How the data were processed

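ATAC-seq, which cuts accessible DNA with the Tn5 transposase, had been run on 9 libraries in 3 groups, taken from the sample labels. According to the study's methods, the authors trimmed adapters with cutadapt, aligned reads to mm9 with Bowtie2 2.3.4.3, kept unique concordant pairs without duplicates or mitochondrial reads, and called peaks in each library with MACS2, with no pooling. The deposited lists give, for each peak, a chromosome, start and end position in bp and no score or read count, so the study's read-count model could not be run. Peaks in blacklisted regions were not removed here. Nothing in the labels says that same-numbered libraries share embryos, and p-values measure only the spread between these pooled libraries.

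Windows were taken from the GENCODE M1 annotation of NCBIM37 (mm9), whose chromosome names match the lists. However, 45 peaks of the lists ended past the end of their chromosome in this genome. The list of Mesp1-Cre Ctrl replicate 1 also held 2 peaks on the mitochondrial chromosome. Peaks were assigned by their midpoint. A gene was called when the groups of 3 libraries did not overlap, and the share of called genes over all protein-coding genes is given as background. Merged regions joined peaks sharing at least 1 bp; a region was distal when no TSS lay within 1 kb of it. Spi1 and Tfap2a were found under older symbols, and Foxf1 under Foxf1a. Members with no peak in any library, and Wnt5a, Wnt11 and Wnt2, were named with the value of every library. Members whose groups did not overlap were named with the value of every library of both groups compared, and other members by ranges. Regions were named by mean peak width. Of the 60 other pathway genes, the 5 with the largest differences in means among those whose groups did not overlap were named, ties in alphabetical order. The Wnt11 promoter sequence was chosen after their values were seen. Of the regions with a peak in all 9 libraries the widest 4 were to be named, of which 1 is not reported here. The members and lists were chosen with earlier results of these data known. Counting was checked on simulated lists of 500 genes, with 0 counts not recovered. Python 3.11.15, numpy and pandas were used. Alternatives were flanks of 10 and 50 kb, promoters within 2 kb, assignment by overlap, TSS of protein-coding genes only, the 19772 widest peaks or the widest 75% of each list, pairs by replicate number, leaving out each library and, added after seeing the data, counts per 10000 peaks.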

Additional observations from a re-analysis of the deposited data

How the results depend on the processing

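The 17 windows with fewer peaks in every cKO than every Tbx1-Cre Ctrl library were 17 with 10 kb flanks and 21 with 50 kb flanks, but 7 with the widest 75% of each list, 0 with equal numbers of widest peaks and 8 per 10000 peaks. Distal counts were 14, then 7 with the widest 75% and 0 with equal numbers of widest peaks. For own promoters the count of 2 became 5 within 2 kb, 1 with the widest 75% and 0 with equal numbers of widest peaks. The Mesp1-Cre count of 11 became 7 with 10 kb flanks, 5 with the widest 75%, 1 with equal numbers of widest peaks and 5 per 10000 peaks. The ratio of distal sums, 0.310, became 0.880 with equal numbers of widest peaks, and the promoter ratio, 0.664, turned to 1.27. The 14 Ctrl-only distal regions became 5 with the widest 75% and 1 with equal numbers of widest peaks, and the single Mesp1-Cre region 3 in the latter. With equal numbers of widest peaks the difference in means turned for cKO at Wnt2b and Wnt6 (0.667 each), Wnt5b (1.33), Wnt10a and Wnt16 (0.333 each), and for Mesp1-Cre at Wnt5b (0.667), Wnt6 and Sfrp5 (0.333 each). Equal numbers discard the narrower peaks of the longer lists by construction, and the cause of the other shifts was not tested.

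Leaving out each library in turn gave ranges of 17 to 25 (all peaks), 15 to 19 (distal), 2 to 5 (own promoter) and 11 to 18 (Mesp1-Cre) windows, ratios of 0.275 to 0.371 and 0.611 to 0.739, and 15 to 29 and 1 to 4 regions (highest without replicate 2 of Tbx1-Cre Ctrl and of Mesp1-Cre Ctrl). With 2 libraries left in an arm, non-overlap is easier to reach. With a replicate block, counting genes lower in all 3 same-numbered pairs, the counts were 25, 21, 4 and 18. Same-numbered libraries deviated together with correlations of 0.381, 0.0345 and 0.237 for Tbx1-Cre Ctrl and cKO. For the control groups these were 0.448, 0.434 and 0.0557. Libraries with unlike numbers had correlations from -0.461 to 0.364, most of them negative. Deviations were taken from the mean of 3 libraries, so positive values for some pairs force negative ones for others by construction. The numbers were not treated as pairs because nothing in the labels pairs the libraries. These correlations do not decide whether same-numbered libraries were handled together, which was not tested. Read depth is unknown, which limits every statement on a missing peak.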
